A study of Mus musculus with 144 samples.

Results

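The genes described here are 10 extracellular matrix and remodelling genes, chosen by symbol from the 55359 genes counted in the data. They are the fibrillar collagen genes *Col1a1*, *Col1a2* and *Col3a1*, the basement membrane collagen gene *Col4a1*, the glycoprotein genes *Fn1* and *Sparc*, the cross-linking enzyme gene *Lox*, the protease gene *Mmp2*, the inhibitor gene *Timp1* and the growth factor gene *Tgfb1*. Each symbol matched 1 gene of the count files, and all 10 had counts.

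Type I and type III collagens form the fibrils that accumulate in a scarred liver, and lysyl oxidase, the product of *Lox*, joins collagen and elastin chains into insoluble fibres. Type IV collagen forms the mesh of basement membranes, fibronectin (*Fn1*) is a plasma and matrix glycoprotein that hepatocytes themselves secrete, and Sparc binds collagen. Mmp2 degrades matrix proteins, Timp1 inhibits such proteases, and Tgfb1 is the cytokine best known for driving matrix gene expression. In the liver the fibrillar collagens are mainly products of hepatic stellate cells and portal fibroblasts.

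RNA-Seq was performed on primary hepatocytes from male mice aged 28 days, either C57BL/6NCrl wild-type mice (WT) or Pkm-delta-DRE mice (PkmΔDRE), in which a dioxin response element in an intron of *Pkm* was removed by genome editing. Hepatocytes received 10 nM of the dioxin TCDD, a ligand of the aryl hydrocarbon receptor, or its DMSO vehicle. They were harvested at 9 time points, 4 within the first 12 h (2, 4, 8 and 12 h) and 5 later (24, 48, 72, 96 and 120 h). Each combination of genotype, treatment and time was a group of 4 libraries, 36 groups in all. All cultures shared a type I collagen-coated surface and medium with ascorbic acid, a cofactor of collagen hydroxylation, and dexamethasone, and the cells came from a collagenase-perfused liver with no sort against other liver cells. The labels do not say that the 4 libraries of a group came from separate animals or cultures, so the p-values measure only the spread between these libraries.

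Between 13588848 and 30719161 counts fell on genes per library, with a median of 18011825. *Pkm*, the targeted gene, went against the genotype labels. At 24 h the mean level was 87 CPM (counts on the gene scaled to an equal library size) in vehicle and 81.9 CPM in TCDD among libraries labelled WT, but 154.5 and 419.9 CPM among libraries labelled PkmΔDRE. Averaged over 9 time points, *Pkm* was higher with TCDD in libraries labelled PkmΔDRE by 0.61 ± 0.16 (log2 fold change ± SE, adjusted p = 0.0156, edgeR quasi-likelihood test), so each genotype is given as its label below. Counts per gene do not separate the isoforms of *Pkm*, and isoform-specific or genotyping measurements were not analysed here.

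Some libraries stood apart from their groups. Across 12231 genes, the fourth library of PkmΔDRE vehicle at 4 h lay nearest to a 96 h group and the fourth library of PkmΔDRE vehicle at 96 h nearest to a 4 h group, and they are called the displaced 4 h and 96 h libraries below. The first library of PkmΔDRE vehicle at 72 h lay nearest to a 120 h group. *Cyp1a1*, the standard TCDD target, went against the treatment label in 4 libraries labelled WT. It was at 3253 CPM in library 21 (vehicle, 48 h) and 1641 CPM in library 31 (vehicle, 96 h), against 1.36 CPM in library 40 (TCDD, 2 h) and 27.6 CPM in library 64 (TCDD, 72 h). Calls that turned without both displaced libraries, or without these 4, are given with and without them.

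*Fn1* was the most abundant of the 10 genes throughout. Per kilobase of summed exon length, the mean level in WT vehicle at 2 h was 321 CPM per kb for *Fn1* and 32.6 CPM per kb for *Col4a1*, followed by *Sparc* at 4.05, *Tgfb1* at 2.59 and *Timp1* at 2.39 CPM per kb. The libraries of *Tgfb1* and *Timp1* overlapped. The other 5 genes were below 0.1 CPM per kb, from 0.0683 for *Col3a1* to 0.00482 for *Lox*, and neighbours in that order overlapped. At 120 h the order had changed, with *Lox* next after *Sparc* at 13.9 CPM per kb, overlapping *Sparc* at 16.5 and *Col1a1* at 4.46 below it. *Fn1* at 794.9 and *Col4a1* at 63.1 CPM per kb still stood clear of the rest.

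**Figure D1:**
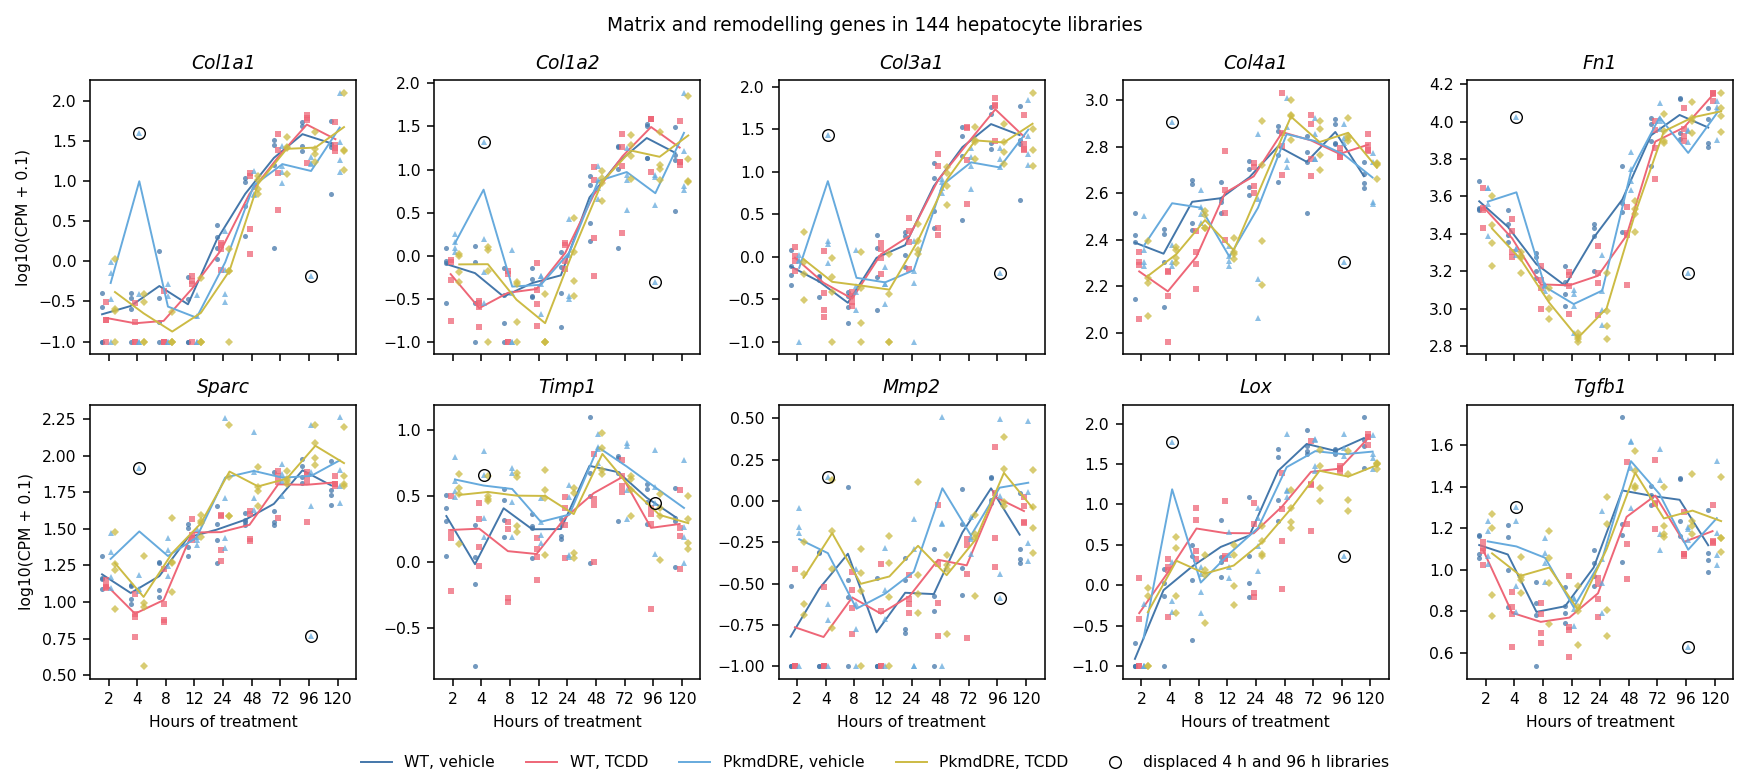
Level of each gene as log10(CPM + 0.1) against hours of treatment, 1 point per library, with lines through the means of the 4 libraries of a group and a separate vertical scale for each gene. The fibrillar collagens and *Lox* climb from near 0 CPM, *Fn1* falls and then rises, *Timp1* stays within one range, and the displaced 4 h and 96 h libraries (circled) sit with groups of other times.

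Most of the 10 genes changed with time in culture. Each later time point was tested against 2 h within each of the 4 arms (label by treatment), and a gene was called changed when its adjusted p-value was below 0.05 and it differed at least 1.5-fold. At 120 h, 8 of the 10 genes were called higher in WT vehicle, 8 in WT TCDD, 6 in PkmΔDRE vehicle and 7 in PkmΔDRE TCDD, and none was called lower. Of all genes tested at 120 h, 33.4%, 28.1%, 26.8% and 26% were called higher in these arms, and 24.5%, 25.2%, 22.7% and 23.9% lower. The median log2 fold change of the 10 genes was 2.72, 2.78, 1.90 and 2.13, against 0.213, 0.14, 0.241 and 0.113 over all genes tested. The 8 comparisons of an arm share its 2 h libraries.

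Calls in the 10 genes were frequent at late times, as they were across the transcriptome. Over the 8 later time points, 44 of 80 tested changes were called in WT vehicle, 43 in WT TCDD, 31 in PkmΔDRE vehicle and 38 in PkmΔDRE TCDD, with 36 in PkmΔDRE vehicle without both displaced libraries, and 46 and 44 in the WT arms without libraries 21, 31, 40 and 64. The share of all genes called, in the same order of arms, was 2.89%, 0.958%, 3.86% and 9.65% at 4 h, 31.9%, 30.5%, 11% and 27.1% at 8 h, and 35.6%, 33.3%, 24.1% and 35.7% at 12 h. It was 45.8%, 41.8%, 33.2% and 47% at 24 h, 51.5%, 45.3%, 37.5% and 48.2% at 48 h, 53.8%, 45.9%, 42.3% and 46.8% at 72 h, and 53.6%, 51.7%, 30.8% and 46% at 96 h. At 120 h it was 57.9%, 53.2%, 49.4% and 49.9%.

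The 3 fibrillar collagen genes went from traces to moderate levels. *Col1a1* (ENSMUSG00000001506, chr11:94936224-94953042 in GRCm38), which encodes a chain of type I collagen, was at 0.305, 0, 0 and 0.171 CPM in the 4 WT vehicle libraries of 2 h and at 26.4, 6.68, 28.8 and 55.3 CPM in those of 120 h. These were 5 counts in all at 2 h and 3746 at 120 h, a ratio of 639 per count on genes (95% exact interval 274 to 1970, counting error only). It was called higher from 24 h in both WT arms and from 48 h in both PkmΔDRE arms, and at 120 h the log2 fold change was 7.94 ± 1.11 (adjusted p = 3.03e-07, edgeR) in WT vehicle and 6.70 ± 1.54 (adjusted p = 0.000807) in PkmΔDRE vehicle. All libraries of 120 h lay above those of 2 h in every arm.

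*Col1a1* was uneven between libraries at 120 h. The 4 PkmΔDRE vehicle libraries were at 123.2, 18.1, 12.9 and 30.1 CPM and the 4 PkmΔDRE TCDD libraries at 125.03, 23.5, 13.6 and 24.4 CPM. One library of each group was far above the other 3, which overlapped the WT range.

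*Col1a2* (ENSMUSG00000029661, chr6:4504814-4541544), the gene of the other type I chain, was at 1.12, 0.712, 0.184 and 0.771 CPM in WT vehicle at 2 h and at 12.7, 3.20, 14.7 and 31.5 CPM at 120 h, a log2 fold change of 4.54 ± 0.88 (adjusted p = 5.02e-05, edgeR). *Col3a1* (ENSMUSG00000026043, chr1:45311538-45349706), the type III collagen gene, was at 1.12, 0.509, 0.369 and 0.686 CPM at 2 h and 23.5, 4.57, 21 and 59.2 CPM at 120 h, a log2 fold change of 5.40 ± 0.81 (adjusted p = 9.59e-07). Neither gene overlapped between 2 h and 120 h, and in each the second library was the lowest of the 120 h group, as it was for *Col1a1*. Both were called higher from 48 h in the WT arms and in PkmΔDRE TCDD, *Col3a1* also in PkmΔDRE vehicle. In PkmΔDRE vehicle *Col1a2* was called at 72 and 120 h, and also at 48 h (2.47 ± 0.85, adjusted p = 0.0203) and 96 h (2.38 ± 0.88, adjusted p = 0.0302) without both displaced libraries. Its 72 h call there was lost in 6 fits that left out 1 library (log2 fold changes over all fits from 2.32 to 3.11).

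Before that rise, *Col1a2* was called lower once, at 12 h in PkmΔDRE TCDD. Its levels there were 0, 0.256, 0 and 0 CPM against 0.948, 0.550, 0.388 and 0.877 CPM at 2 h, a log2 fold change of -3.11 ± 1.19 (adjusted p = 0.0387, edgeR). The call rests on a few counts, and leaving out single libraries ended it in 5 fits.

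The 250 bases before the RefSeq start of *Col1a2* (chr6:4505368-4505617, plus strand) and *Col3a1* (chr1:45311288-45311537, plus strand) are shown because these genes rose together over the course. Both are from RefSeq on GRCm38.p6, 5′ to 3′, with capitals marking CAGAC or its reverse complement GTCTG, the core letters of the element bound by the SMAD proteins that carry TGF-beta signals.

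Col1a2: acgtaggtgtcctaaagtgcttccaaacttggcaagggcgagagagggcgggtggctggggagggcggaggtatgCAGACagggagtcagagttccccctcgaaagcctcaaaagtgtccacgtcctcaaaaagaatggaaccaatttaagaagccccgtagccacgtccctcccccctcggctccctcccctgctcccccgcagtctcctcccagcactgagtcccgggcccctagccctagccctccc

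Col3a1: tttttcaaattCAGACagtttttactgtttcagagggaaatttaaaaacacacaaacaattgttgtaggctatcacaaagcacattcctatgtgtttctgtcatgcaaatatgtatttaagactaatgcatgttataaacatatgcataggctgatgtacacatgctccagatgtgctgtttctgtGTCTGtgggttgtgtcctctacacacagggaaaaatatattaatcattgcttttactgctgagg

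The *Col1a2* window held 1 such match and 62% G and C, and the *Col3a1* window held 2 matches and 35.2% G and C. CAGAC on either strand was present in 42.2% of 32851 promoter windows of this length, so its presence is a description of these windows and of no factor. A TATA box (TATAAA), present in 12.4% of windows, was found in *Col3a1* alone of the 6 genes with an entry. A CCAAT box (33.8% of windows) was found in *Col1a2*, *Col4a1* and *Timp1*, and a GC box (GGGCGG, 32.7%) in *Col1a2*, *Timp1* and *Tgfb1*. *Col1a1*, *Fn1*, *Mmp2* and *Lox* had no entry.

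*Col4a1* (ENSMUSG00000031502, chr8:11198423-11312826), which encodes a chain of the type IV collagen of basement membranes, was already abundant at 2 h and rose less. Its levels in WT vehicle were 245, 327, 139.2 and 263 CPM at 2 h, 829, 789, 648 and 652 CPM at 96 h, and 480.1, 441, 543 and 418 CPM at 120 h. The 2 h libraries lay below all those of 96 h and 120 h, and the 120 h libraries lay below all those of 96 h. The log2 fold change against 2 h was 1.54 ± 0.25 at 96 h (adjusted p = 3.71e-06, edgeR) and 1.00 ± 0.25 at 120 h (adjusted p = 0.00082). At 120 h it was 1.81 ± 0.26 in WT TCDD and 1.497 ± 0.29 in PkmΔDRE TCDD, both called, and 0.97 ± 0.44 in PkmΔDRE vehicle (adjusted p = 0.0661), where it was called without both displaced libraries (0.97 ± 0.34, adjusted p = 0.0175). The 12 h call in WT vehicle (0.60 ± 0.25, adjusted p = 0.0487) was lost under several settings, among them without libraries 21, 31, 40 and 64 (0.61 ± 0.25, adjusted p = 0.0548).

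*Fn1* (ENSMUSG00000026193, chr1:71585520-71653200) fell before it rose. In WT vehicle it was at 3352, 4785, 3410 and 3458 CPM at 2 h, at 1388, 1692, 1036 and 1206 CPM at 12 h and at 11838, 10277, 7716 and 7321 CPM at 120 h. The 3 time points did not overlap. The log2 fold change against 2 h was -1.52 ± 0.25 at 12 h (adjusted p = 1.32e-05, edgeR) and 1.36 ± 0.25 at 120 h (adjusted p = 2.66e-05).

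The fall of *Fn1* was called at 8, 12 and 24 h in all 4 arms, with the lowest mean at 12 h in each, from 700.1 ± 30.4 CPM (SD, n = 4) in PkmΔDRE TCDD to 1335 ± 283 CPM in WT TCDD. At 12 h the log2 fold change was -1.40 ± 0.26 in WT TCDD, -1.80 ± 0.45 in PkmΔDRE vehicle and -1.95 ± 0.24 in PkmΔDRE TCDD. The rise was called at 72 and 120 h in every arm and at 96 h in all but PkmΔDRE vehicle. That group held the displaced 96 h library at 1558 CPM beside 7743, 8881 and 9009 CPM, and without both displaced libraries the 96 h change was called (1.17 ± 0.27, adjusted p = 0.000706). The 24 h call in WT vehicle (-0.64 ± 0.25, adjusted p = 0.0334) was lost when library 2 (-0.48), 18 (-0.66) or 20 (-0.55) was left out. In PkmΔDRE vehicle the 8 h call was lost in 7 fits that left out 1 library (log2 fold changes over all fits from -1.67 to -1.42).

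*Sparc* (ENSMUSG00000018593, chr11:55394500-55423183), a matricellular protein gene, rose earlier than the fibrillar collagens. In WT vehicle it was at 14.2, 20.6, 14.4 and 12.2 CPM at 2 h, 33.5, 36, 35.3 and 40.7 CPM at 48 h and 58, 45.8, 53.9 and 92.3 CPM at 120 h. No library of 48 h or 120 h overlapped the 2 h group. It was called higher from 12 h in the WT arms and from 24 h in the PkmΔDRE arms, with a log2 fold change at 120 h of 2.09 ± 0.27 (adjusted p = 8.8e-08, edgeR) in WT vehicle, 2.34 ± 0.29 in WT TCDD, 2.23 ± 0.70 in PkmΔDRE vehicle and 2.24 ± 0.44 in PkmΔDRE TCDD. In PkmΔDRE vehicle each of its 5 calls was lost in at least 1 fit that left out a library. At 24 h the log2 fold change was 1.89 and became 0.78 without library 92, and at 96 h it was 1.88 and became 1.11 without the second library.

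*Lox* (ENSMUSG00000024529, chr18:52516067-52529867) showed the widest change of the 10 genes in WT vehicle. In WT vehicle it was at 0, 0, 0.0922 and 0 CPM at 2 h, which was 1 count in all, at 1.86, 2.13, 6.40 and 1.16 CPM at 12 h and at 63.3, 28.1, 120.0 and 53.4 CPM at 120 h, which was 8039 counts. The ratio of 120 h to 2 h was 6860 per count on genes, with a 95% exact interval of 1230 to 271000 that covers counting error only. In PkmΔDRE vehicle it was at 0, 0.481, 0 and 0 CPM at 2 h and 27.6, 37.9, 72.8 and 41.8 CPM at 120 h, a ratio of 914 (420 to 2490). *Lox* was called higher from 8 h in the WT arms and from 12 h in the PkmΔDRE arms, at an earlier time point than any fibrillar collagen gene in the same arm. The 12 h and 24 h calls in WT TCDD each rested on 1 library (51 and 55) and were lost without it, with log2 fold changes of 2.46 and 2.6. The 12 h call in PkmΔDRE vehicle was lost in 4 fits that left out 1 library (log2 fold changes over all fits from 3.69 to 8.503) and that in PkmΔDRE TCDD in 12 (1.68 to 3.11), whereas both 24 h calls held in all such fits.

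One early *Lox* call rested on the displaced 4 h library. At 4 h in PkmΔDRE vehicle the log2 fold change was 6.82 ± 1.44 (adjusted p = 0.00813, edgeR) with that library, which was at 58.5 CPM, and 2.81 ± 1.03 (adjusted p = 0.209) without it. At 8 h the log2 fold change was 2.87 (adjusted p = 0.218) with all libraries and 2.88 ± 0.98 (adjusted p = 0.0392) without both displaced libraries, which share the fit.

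*Mmp2* (ENSMUSG00000031740, chr8:92827291-92853420), the gene of gelatinase A, stayed scarce. It was at 0, 0.204, 0 and 0 CPM in WT vehicle at 2 h, 1.30, 1.28, 0.918 and 0.871 CPM at 96 h and 0.347, 0.324, 0.412 and 1.02 CPM at 120 h. The 2 h libraries held 2 counts in all and those of 120 h 66, a ratio of 28.2 (95% exact interval 7.49 to 237). It was called higher at 72, 96 and 120 h in WT vehicle, 96 and 120 h in WT TCDD and 96 h in PkmΔDRE TCDD, and at no time in PkmΔDRE vehicle. The WT vehicle calls at 72 and 120 h were each lost in some fits that left out 1 library, among them library 36, the highest at 120 h (2.79 without it). The PkmΔDRE TCDD call at 96 h was lost in 3 such fits.

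*Timp1* (ENSMUSG00000001131, chrX:20870166-20874735), the metalloproteinase inhibitor gene, was called at no time in any arm. In WT vehicle it was at 1.93, 2.44, 1.01 and 3.08 CPM at 2 h, 0.885, 3.07, 12.3 and 4.61 CPM at 48 h and 1.92, 0.809, 3.53 and 2.06 CPM at 120 h. The time points overlapped, and 1 library of 48 h stood above the rest. The log2 fold change at 120 h ran from -0.79 ± 0.49 in PkmΔDRE TCDD (adjusted p = 0.176, edgeR) to 0.14 ± 0.59 in WT TCDD (adjusted p = 0.85). Without libraries 21, 31, 40 and 64 it was called higher at 48 h in WT vehicle (1.63 ± 0.58, adjusted p = 0.019) and at 72 h in WT TCDD (1.83 ± 0.69, adjusted p = 0.0301), where all libraries had given 1.28 and 1.36.

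*Tgfb1* (ENSMUSG00000002603, chr7:25687002-25705077), the growth factor gene, dipped and then peaked near 48 h. In PkmΔDRE vehicle it was at 17, 10.6, 11.6 and 15.2 CPM at 2 h, 6.35, 5.27, 7.16 and 7.26 CPM at 12 h, 41.2, 19.6, 41.3 and 30.7 CPM at 48 h and 33.3, 11.7, 10.5 and 14.9 CPM at 120 h. The 2, 12 and 48 h groups did not overlap, and the 120 h group overlapped that of 2 h. It was called lower at 8 and 12 h in both WT arms, with log2 fold changes from -1.11 ± 0.30 to -1.01 ± 0.36. Leaving out 1 library ended the WT vehicle call in 1 fit at 8 h and in 3 fits at 12 h. In PkmΔDRE vehicle the 12 h change was -1.04 (adjusted p = 0.0754), and without both displaced libraries it was called (-1.08 ± 0.39, adjusted p = 0.0357). It was called higher at 48 h in both PkmΔDRE arms (1.32 ± 0.43 in vehicle, adjusted p = 0.0159, and 1.30 ± 0.40 in TCDD, adjusted p = 0.00657, edgeR) and at 72 h in WT TCDD. The PkmΔDRE vehicle call at 48 h was lost in 4 fits that left out 1 library (log2 fold changes over all fits from 1.15 to 1.52). At 48 h in WT vehicle the call (0.85 ± 0.35, adjusted p = 0.0397) rested on library 23 at 54.1 CPM beside 10.8, 14.6 and 16.4 CPM, and the log2 fold change without it was 0.12. Without libraries 21, 31, 40 and 64 *Tgfb1* was also called higher in WT vehicle at 72 h (0.78 ± 0.32, adjusted p = 0.0415) and 96 h (0.86 ± 0.35, adjusted p = 0.0366), where all libraries gave 0.77 and 0.70. At 120 h it was called in no arm.

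Markers of other liver cells moved over the same course. The samples are bulk RNA, so more cells of a type and more RNA per cell cannot be told apart. Of 15 hepatic stellate cell markers, 11 or 12 were tested at 120 h, depending on the arm. Of these, 3 to 6 were called higher and 0 to 2 lower. Over all genes tested, 26% to 33.4% were called higher and 22.7% to 25.2% lower. The median log2 fold change of the list was 1.35 to 2.13, against 0.113 to 0.241 over all genes tested. The summed level of the list ran from 14.1 to 26.5 CPM per vehicle library at 2 h and from 19.4 to 128.3 CPM at 120 h, and in TCDD libraries from 10.7 to 36.9 CPM and from 60.4 to 148.6 CPM. *Reln* was a large part of these sums, and without it vehicle libraries ran from 3.32 to 8.13 CPM at 2 h and from 17.2 to 123.8 CPM at 120 h. Without *Reln* TCDD libraries ran from 2.29 to 11.5 CPM at 2 h and from 22.1 to 90.4 CPM at 120 h. The ranges of the treatments overlapped at 120 h with *Reln* and without it. *Acta2*, smooth muscle actin and the marker of activated stellate cells, was at 0 CPM in all 4 WT vehicle libraries of 2 h and at 8.21 to 49 CPM at 120 h. *Lrat*, which marks vitamin A-storing stellate cells, had a mean of 0.0922 CPM at 2 h and 0.635 CPM at 120 h in WT vehicle, and *Gfap* was at 0 and 0.0759 CPM. Of 9 portal fibroblast and mesothelial markers, 3 or 4 were tested, and 2 or 3 were called higher and 0 or 1 lower. Their summed levels were 2.07 to 9.68 CPM at 2 h and 5.43 to 45.8 CPM at 120 h. The part of these cells in the collagen rise was not tested.

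Hepatocyte, endothelial and macrophage markers moved down. All 12 hepatocyte markers were called lower at 120 h in every arm, and their summed level went from 111700 to 254200 CPM at 2 h to 2891 to 16030 CPM at 120 h. *Alb*, the albumin gene, had been at 87100 to 192400 CPM at 2 h. Of 9 sinusoidal endothelial markers 4 to 7 were called lower, of 9 Kupffer cell and macrophage markers 5 to 8, and in both lists none was called higher. Of 5 cholangiocyte markers 2 were called higher, *Krt7* and *Krt19*, and 0 or 1 lower, and their summed level was 31.8 to 139.2 CPM at 2 h, reached 356.3 CPM in 1 library of 48 h and was 97.4 to 190.1 CPM at 120 h. Leukocyte markers summed to at most 2.85 CPM at 2 h and 1.73 CPM at 120 h.

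In the libraries of 48 to 120 h the fibrillar collagen genes and *Acta2* were often high in the same libraries. There are 16 late groups of 4 libraries. The library highest in *Col1a1* was also the highest in *Col3a1* in 12 of the 16 groups, in *Col1a2* in 11, in *Acta2* in 11 and in *Pdgfrb*, another stellate cell marker, in 9. It was the highest in *Lox* in 2 of the 16 groups and in the cholangiocyte marker *Krt19* in 4. No other stellate cell marker was compared in this way. Library 27 (WT, vehicle, 72 h) shows the contrast, with *Lox* at 83.9 CPM, *Col1a1* at 1.37 CPM and *Acta2* at 0.256 CPM. The first library of PkmΔDRE vehicle at 120 h shows the reverse, with *Lox* at 27.6 CPM, *Col1a1* at 123.2 CPM and *Acta2* at 92.3 CPM. The genes of a library share its depth and its RNA, so these counts are a description.

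**Figure D2:**
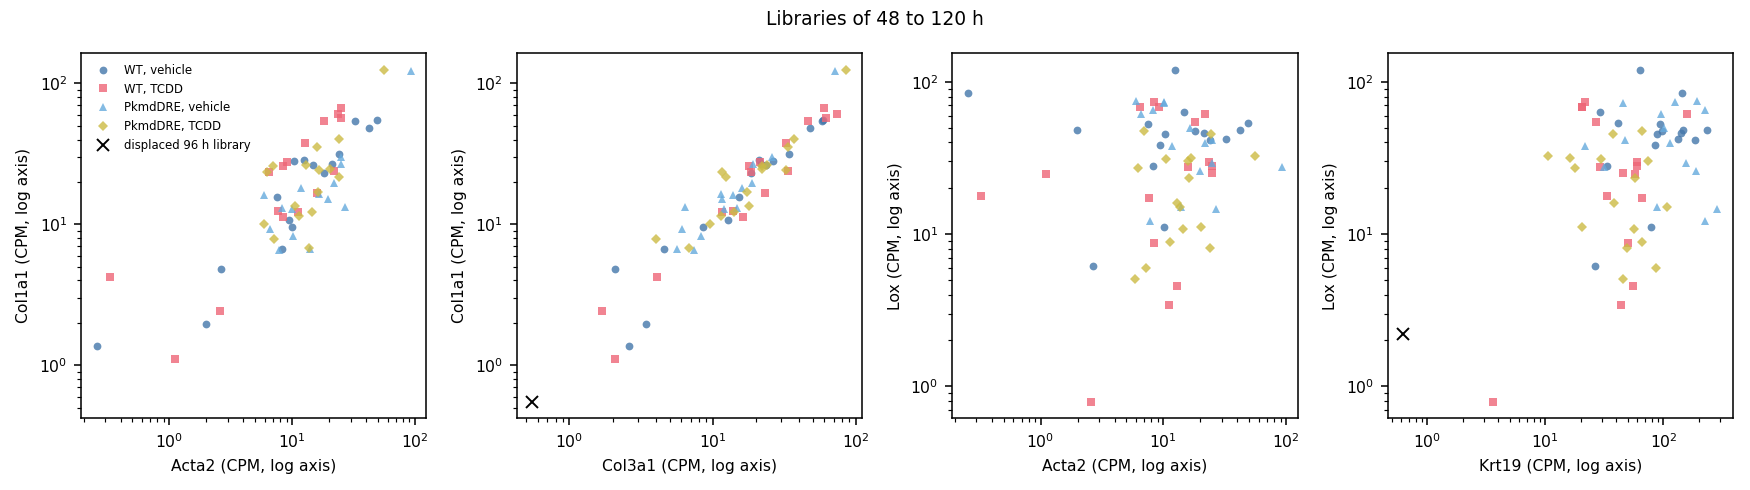
Levels in CPM on log axes in the libraries of 48 to 120 h, 1 point per library, for *Col1a1* against *Acta2* and *Col3a1* and for *Lox* against *Acta2* and *Krt19*. *Col1a1* rises with *Acta2* and *Col3a1* from library to library, whereas *Lox* does not rise with *Acta2*; the displaced 96 h library (cross) has *Acta2* at 0 and is absent from both *Acta2* panels.

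Across the 36 group means of log2(CPM + 0.1), the genes most like each member were ranked by Pearson's r among 11489 genes. *Col1a2* was nearest to *Col3a1* (r = 0.975) and *Col1a1* (0.965), and *Col3a1* to *Col1a2* and *Col1a1* (both 0.975), while *Col1a1* was nearest to *Lama5* (0.983), *App* (0.981) and *Myo5c* (0.979). *Col4a1* was nearest to *Col4a2* (0.969), its neighbour on the chromosome and partner chain, and *Sparc* to *Serpinh1* (0.973), the collagen chaperone gene. *Lox* was nearest to *Dcbld2* (0.970), *Srgap2* (0.969) and *Abcc5* (0.958), *Fn1* to *Tmem14a* (0.962) and *Tgfb1* to *Flt4* (0.915). *Mmp2* (*Adamts14*, 0.860) and *Timp1* (*R3hdml*, 0.766) had no gene as close. All groups share the course of culture, so high values are common.

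Other matrix genes moved in both directions. At 120 h, over the 4 arms, 7 to 9 of 17 other collagen genes were called higher and 2 lower, 10 to 14 of 26 basement membrane and matrix glycoprotein genes higher and 2 or 3 lower, and 7 to 11 of 20 collagen processing and cross-linking genes higher and 3 or 4 lower. Of 20 matricellular and small proteoglycan genes 5 or 6 were called higher and 5 or 6 lower. Of 28 matrix proteases and inhibitors 7 to 11 were higher and 2 to 6 lower, of 25 TGF-beta pathway genes 11 or 12 higher and 4 to 7 lower, and of 16 matrix receptors 7 to 12 higher and 1 lower. These counts stand against 26% to 33.4% of all genes tested called higher and 22.7% to 25.2% lower. The list sizes include genes too low to be tested. Tested at 120 h were 15 or 16 other collagens, 22 glycoprotein genes, 18 or 19 processing genes and 15 to 18 matricellular genes. So were 22 to 25 proteases and inhibitors, 25 TGF-beta pathway genes and 15 or 16 receptors.

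Among the genes called in the same direction in all 4 arms, up to 3 with the largest change in WT vehicle were picked from each list. The levels given are means in WT vehicle at 2 h and 120 h. *Loxl2*, a relative of *Lox*, went from 3.95 to 196.0 CPM (log2 fold change 5.68 ± 0.38, adjusted p = 4.67e-14, edgeR), *Plod2*, a lysyl hydroxylase gene, from 0.207 to 6.36 CPM and *Serpinh1* from 2.92 to 15.5 CPM. *Col4a5* went from 1.10 to 51.8 CPM. Among glycoproteins *Fbln2* (fibulin 2) had the largest change (0.111 to 22.3 CPM, 7.55 ± 1.36), followed by *Efemp1* (0.561 to 48.96 CPM) and *Lama5*, a laminin chain gene (8.84 to 189 CPM). Among receptors *Itgb8*, an integrin chain gene, was at 0 CPM in all WT vehicle libraries of 2 h and at a mean of 1.06 CPM at 120 h. *Ddr1*, a collagen receptor gene, went from 4.10 to 165 CPM. *Spp1* (osteopontin) went from 14.4 to 587 CPM and *Vcan* (versican) from 0.214 to 16.7 CPM. *Ltbp3*, the gene of a protein that binds latent TGF-beta, went from 0.497 to 20.9 CPM, *Tgfb2* from 4.09 to 57.2 CPM and *Tgfb3* from 0.526 to 9.10 CPM, whereas *Tgfb1* was at 13.1 and 13 CPM. *Plat*, a plasminogen activator gene, went from 1.38 to 105.3 CPM. *Timp2*, the inhibitor that also binds pro-Mmp2, went from 2.77 to 85.6 CPM, whereas *Timp1* was at 2.12 and 2.08 CPM.

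**Figure D3:**
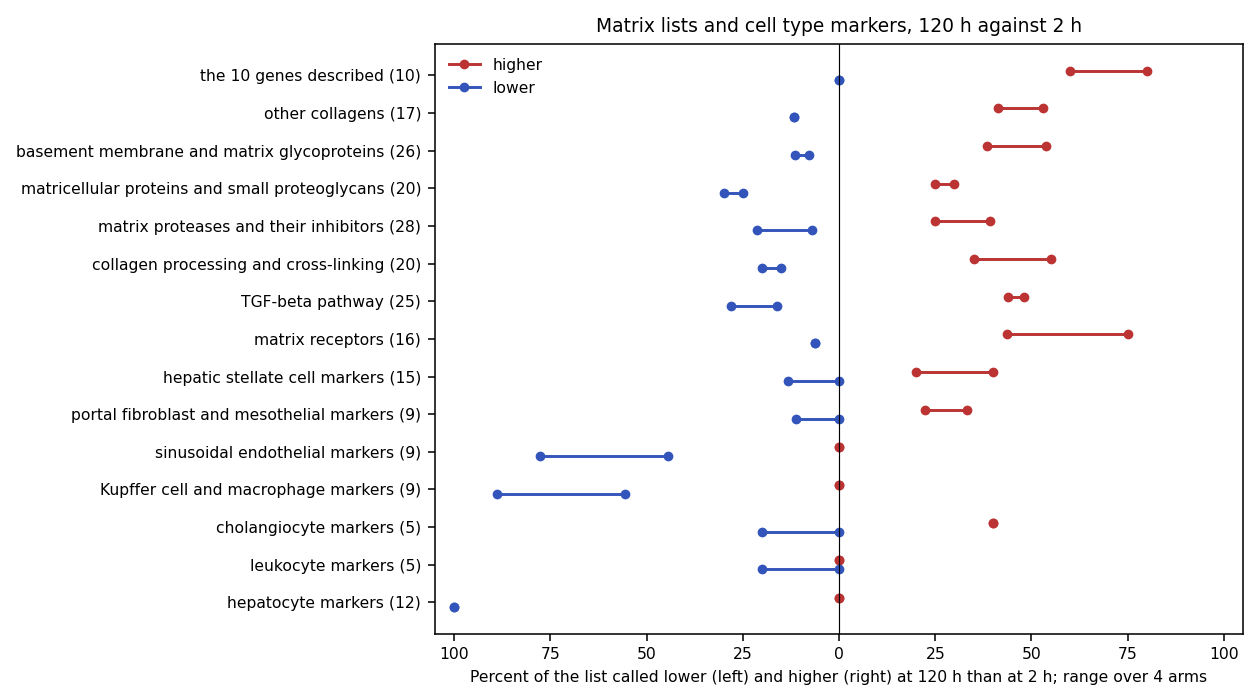
Percentage of each list called higher (right of 0) and lower (left of 0) at 120 h than at 2 h, as the range over the 4 arms, with list sizes in parentheses. The 10 genes described have 6 to 8 members called higher and 0 lower, hepatocyte markers are all lower, and sinusoidal endothelial and Kupffer cell markers have no member called higher.

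Few changes with TCDD were called in the 10 genes, and few in all genes at most time points. The only calls, in WT, fell at 8 and 96 h, when the shares of all genes called were largest. A gene not called was not shown to be unchanged. Against time-matched vehicle, 2 of the 71 changes tested over 9 time points were called in libraries labelled WT and 0 of 73 in libraries labelled PkmΔDRE (edgeR quasi-likelihood test). An unadjusted p under 0.05 was found for 9 in WT and 4 in PkmΔDRE, and DESeq2 called 3 in WT and 1 in PkmΔDRE, *Fn1* at 48 h. *Mmp2* was too low to be tested before 72 h, and the fibrillar collagens mostly before 24 h. In WT the share of all genes called was 37.4% at 8 h and 15.1% at 96 h, against 0% for 2, 4 and 72 h and 0.0321%, 0.373%, 0.00763% and 1.46% for 12, 24, 48 and 120 h. In PkmΔDRE 0% were called for 2 and 4 h, then 0.106%, 0.024% and 0.016% for 8, 12 and 24 h, 0.404% and 1.13% for 48 and 72 h, and 0.0793% and 0.633% for 96 and 120 h. *Cyp1a1* was higher by 6.03 ± 0.54 (WT) and 7.69 ± 0.36 (PkmΔDRE) over the course.

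**Figure D4:**
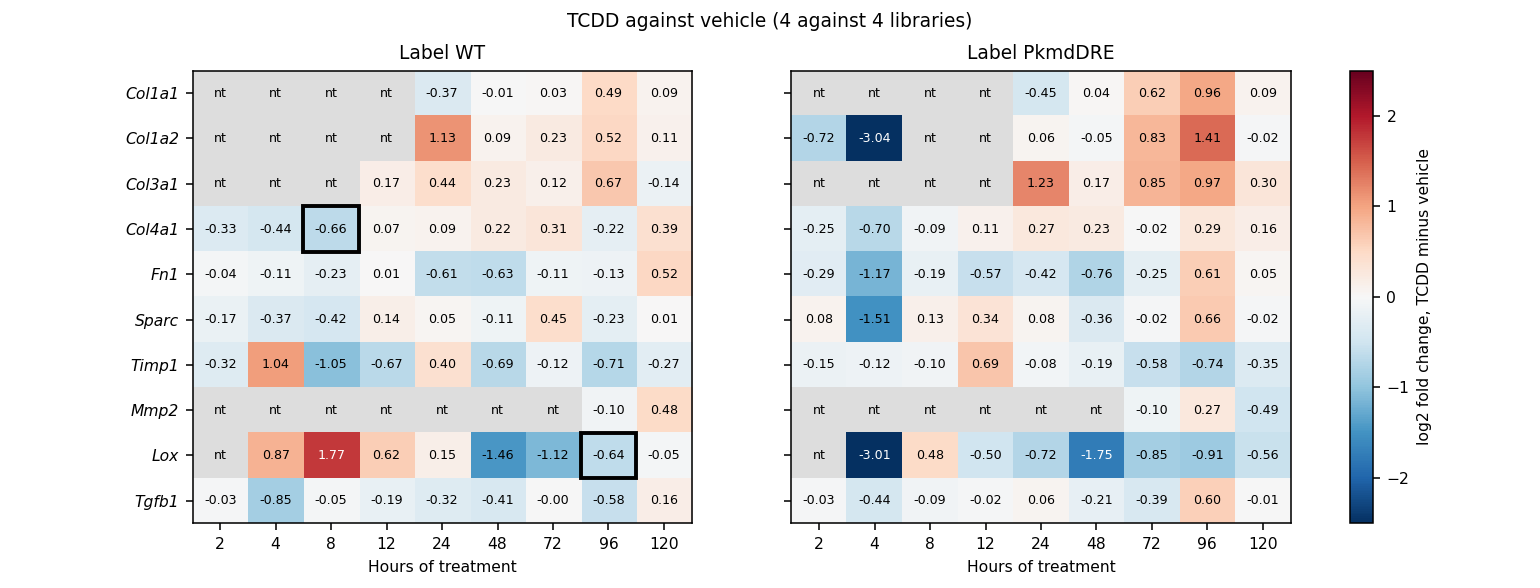
Log2 fold change of TCDD against vehicle (4 against 4 libraries) for each gene and time point in libraries labelled WT and PkmΔDRE, with black frames around the changes called and "nt" where a gene was too low to be tested. Only *Col4a1* at 8 h and *Lox* at 96 h in WT are framed, and *Lox* is negative from 48 h under both labels.

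*Col4a1* was called lower with TCDD at 8 h in WT. The vehicle libraries were at 454, 436, 295 and 276 CPM and the TCDD libraries at 223, 274, 154 and 198 CPM. All TCDD libraries lay below all vehicle libraries, though by a small gap. The log2 fold change was -0.66 ± 0.21 (adjusted p = 0.0209, edgeR), at a time when 37.4% of all genes were called. It was no longer called when library 9 (-0.54), 10 (-0.56), 47 (-0.54) or 48 (-0.62) was left out. The share of uniquely mapped reads on no gene was 8.36% to 21.95% in these TCDD libraries and 4.89% to 6% in vehicle, and with that share as a covariate the change was -0.69 ± 0.29 (adjusted p = 0.0704). Its part in the result cannot be told apart from the treatment. In PkmΔDRE the libraries were at 347, 295, 324 and 412 CPM in vehicle and 333, 322, 282 and 281 CPM in TCDD, a log2 fold change of -0.09 ± 0.15, and the difference between the labels, 0.44 ± 0.26, was not called (adjusted p = 0.375).

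The 250 bases before the RefSeq start of *Col4a1* (chr8:11312827-11313076, minus strand, RefSeq on GRCm38.p6) are shown as that of the one member with an entry that was called with TCDD. Capitals mark GCGTG, the core letters of the dioxin response element.

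Col4a1: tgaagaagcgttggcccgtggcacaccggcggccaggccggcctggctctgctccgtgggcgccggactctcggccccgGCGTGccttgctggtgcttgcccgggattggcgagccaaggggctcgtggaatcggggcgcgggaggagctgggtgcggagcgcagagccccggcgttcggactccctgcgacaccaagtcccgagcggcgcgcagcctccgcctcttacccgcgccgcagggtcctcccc

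The window held 1 GCGTG and 74.4% G and C. GCGTG on either strand was in 28.2% of 32851 windows, and in those of *Col4a1*, *Timp1* and *Tgfb1* among the 6 members with an entry. It was not in the windows of *Col1a2*, *Col3a1* and *Sparc*, which says only that these letters are absent from 250 bases.

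*Lox* was called lower with TCDD in 1 of 8 late comparisons, at 96 h in WT. There the vehicle libraries were at 47.5, 46.1, 42.1 and 48.3 CPM and the TCDD libraries at 27.7, 29.9, 27.8 and 25.2 CPM. The groups did not overlap, and the log2 fold change was -0.64 ± 0.09 (adjusted p = 0.000742, edgeR), with 15.1% of all genes called. The call held in each fit that left out 1 library and without libraries 21, 31, 40 and 64 (-0.69 ± 0.09, adjusted p = 0.000973), and was lost when all 72 libraries of the label shared 1 fit (-0.68 ± 0.77).

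Some cholangiocyte markers moved with *Lox* in these libraries. At 96 h in WT the summed level of the 5 markers was 247.6 to 287.4 CPM in vehicle and 122.3 to 140.5 CPM in TCDD. *Krt19* (-1.33 ± 0.22, adjusted p = 0.00216, edgeR) and *Krt7* (-0.80 ± 0.13, adjusted p = 0.00133) were called lower. *Epcam* (-0.16 ± 0.40, adjusted p = 0.794) and *Sox9* (-0.53 ± 0.24, adjusted p = 0.111) were not called, and *Cftr* was too low to be tested. At 96 h in PkmΔDRE none was called, with *Krt19* at -1.31 ± 1.03, *Krt7* at -0.87 ± 1.01, *Epcam* at 0.42 ± 0.91 and *Sox9* at 0.16 ± 0.32. In the 16 late groups the library highest in *Lox* was also the highest in *Krt19* in 8. The part of cholangiocytes in the *Lox* difference was not tested.

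At 48 h in WT *Lox* was at 6.14, 11.2, 48.0 and 38.5 CPM in vehicle and 0.790, 3.43, 24.7 and 8.75 CPM in TCDD, and in PkmΔDRE at 15, 73.4, 12.2 and 14.7 CPM in vehicle and 5.04, 8.84, 5.96 and 15.2 CPM in TCDD. The treatments overlapped under both labels. At 72 h in WT *Lox* was at 52.7, 45.7, 83.9 and 41.6 CPM in vehicle and 17.4, 4.54, 17.8 and 61.2 CPM in TCDD. The overlap at 72 h in WT came from library 64 alone, whose *Cyp1a1* went against its treatment label. The log2 fold change there ran from -2.09 to -0.78 with 1 library left out. The log2 fold change at 48, 72 and 120 h was -1.46 ± 0.93, -1.12 ± 0.63 and -0.05 ± 0.36 in WT, and at 48, 72, 96 and 120 h -1.75 ± 0.65, -0.85 ± 0.45, -0.91 ± 0.86 and -0.56 ± 0.28 in PkmΔDRE. None of these 7 was called. At 120 h in WT the sign turned when library 35 (0.40) or library 71 (0.05) was left out.

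**Figure D5:**
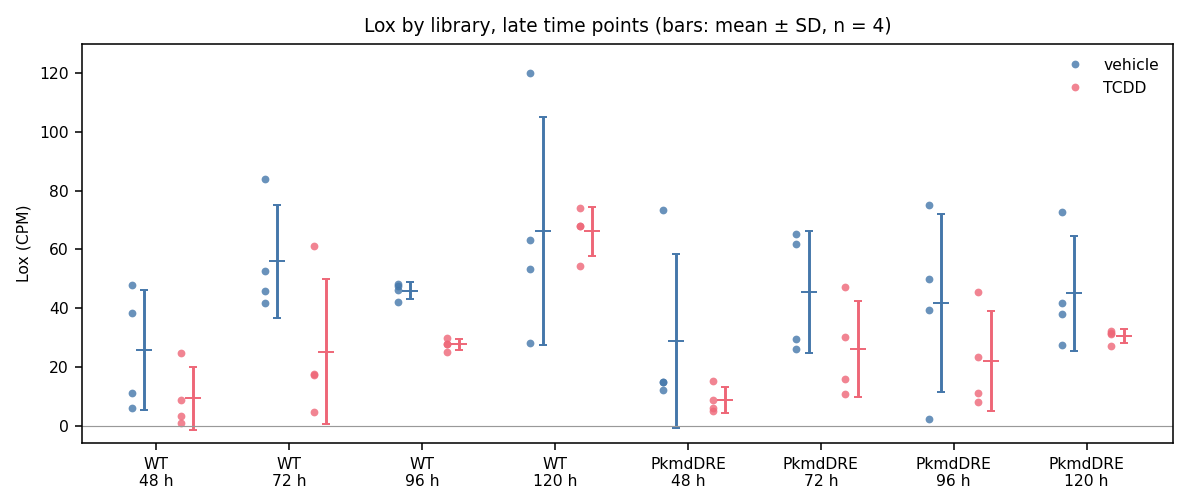
*Lox* in CPM in each library of 48 to 120 h by label, time and treatment, with bars for the mean ± SD of 4 libraries. At 96 h in WT the TCDD libraries (25.2 to 29.9 CPM) lie below the vehicle libraries (42.1 to 48.3 CPM), and in the other 7 pairs of groups the treatments overlap. At 72 h in WT they overlap through library 64 alone.

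Averaged over 48 to 120 h, a comparison added after the values were seen, the log2 fold change of *Lox* was -0.82 ± 0.39 in WT (adjusted p = 0.275, edgeR, 2.68% of all genes called) and -1.01 ± 0.43 in PkmΔDRE (adjusted p = 0.191, 4.17% called). With libraries 21, 31, 40 and 64 and both displaced libraries left out it was -1.16 ± 0.40 (adjusted p = 0.0595, 4.29% called) and -1.10 ± 0.33 (adjusted p = 0.0253, 4.96% called). Over all 9 time points it was 0.38 ± 0.38 in WT and -0.70 ± 0.34 in PkmΔDRE, neither called. At 8 h in WT the direction was the opposite, with 3.09, 1.06, 0.113 and 2.17 CPM in vehicle and 1.99, 6.30, 8.95 and 2.55 CPM in TCDD, overlapping groups and a log2 fold change of 1.77 ± 0.71 (adjusted p = 0.0555). This increase was called by DESeq2 (1.74 ± 0.69, adjusted p = 0.0258), with no filter on low counts (1.80 ± 0.44, adjusted p = 0.000527, edgeR) and with the share of reads on no gene as a covariate (2.52 ± 0.82, adjusted p = 0.0274), and over all alternatives the adjusted p ran from 0.000527 to 0.131.

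No member was called with TCDD averaged over 9 time points. The share of all genes called was 9.17% in WT and 2.12% in PkmΔDRE, and 0 of 10 members were called in either, with 2 of 10 at an unadjusted p under 0.05 in each and 0 by DESeq2. *Tgfb1* was lower in WT by a small amount (-0.29 ± 0.11, adjusted p = 0.0335, edgeR), short of the fold change of 1.5, and *Fn1* had a log2 fold change of -0.19 ± 0.08 in WT (adjusted p = 0.0697) and -0.36 ± 0.12 in PkmΔDRE (adjusted p = 0.0772). At 96 h in WT *Tgfb1* had -0.58 ± 0.25 (adjusted p = 0.0931), and without libraries 21, 31, 40 and 64 it was called (-0.74 ± 0.23, adjusted p = 0.0373).

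No difference between treatments was detectable in the fibrillar collagens at late times. At 120 h the log2 fold change of *Col1a1* with TCDD was 0.09 ± 0.55 in WT and 0.09 ± 0.83 in PkmΔDRE, and that of *Col3a1* -0.14 ± 0.66 and 0.30 ± 0.68. These standard errors are about as large as the log2 of the fold change threshold or larger, so a change of 1.5-fold was not detectable.

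The response to TCDD was not shown to differ between the labels for any member. None of 77 interaction tests was called (edgeR; 0.00715% of all genes called at 48 h, 0.00695% at 72 h and 0% at the other times), 3 had an unadjusted p under 0.05 and DESeq2 called 0. In vehicle, 1 of 74 differences between the labels was called, *Col4a1* at 12 h, when 3.68% of all genes were called, against 0.0576% at 8 h and 0% at the other times. *Col4a1* was at 363, 446, 377 and 328 CPM in WT and 214, 237, 203 and 194 CPM in PkmΔDRE. The labels did not overlap, and the log2 fold change (PkmΔDRE minus WT) was -0.78 ± 0.16 (adjusted p = 0.0286, edgeR). It was no longer called when library 14 (-0.70), 85 (-0.77), 87 (-0.75) or 88 (-0.77) was left out. At 8 h the labels overlapped, with a difference of -0.09 ± 0.21, and at 24 h the PkmΔDRE vehicle libraries ran from 115.4 to 716 CPM.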

How the data were processed

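RNA from cultured hepatocytes was sequenced by the authors as unstranded read pairs, 4 libraries in each of 36 groups. Tool versions in the study's methods and in the submitters' notes differ in part, and those of the notes are given. Per the labels and the submitters' processing notes, reads were checked with FastQC 0.11.3, trimmed with Trimmomatic 0.39 and aligned with STAR 2.7 to GRCm39, and DESeq2 was named. The deposited values are raw counts of uniquely mapped reads per gene from STAR, 1 file per library, and the unstranded count column was used, so reads of overlapping genes on opposite strands cannot be told apart. Lines that name no gene held 16.8% to 48.0% of a library's total and were left out. Depth was 13588848 to 30719161 counts on genes. Symbols, coordinates and exon lengths came from GENCODE M21 on GRCm38, which matched 52083 of 55359 identifiers, and these coordinates are not those of the build used for alignment. Promoter windows came from RefSeq on GRCm38.p6, in which 6 of the 10 members had an entry.

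Groups were taken from the sample labels. CPM values used library sizes scaled by the trimmed mean of M-values. Differences were tested on the deposited counts with edgeR 4.0.16 in R 4.3.3 (quasi-likelihood test, robust, genes kept by filterByExpr at a count minimum of 10 and a total of 15, Benjamini-Hochberg adjustment over all genes tested). TCDD was compared with vehicle, and the labels with each other, in 1 fit per time point. The average over time points used the 72 libraries of a label, and each time course the 36 libraries of an arm. A gene was called when its adjusted p-value was below 0.05 and it differed at least 1.5-fold. On simulated counts for TCDD at 24 h in WT (12431 genes), 44 of 100 genes changed 2-fold and 84 of 100 changed 4-fold were recovered, with 5 unchanged genes called. For 120 h against 2 h in WT vehicle (13158 genes), 51 and 76 of 100 were recovered, with 6 unchanged genes called. Only genes with an expected count of at least 10 per library in the vehicle 24 h or 2 h group were changed. The rates for 120 h thus do not cover *Col1a1*, *Lox* and *Mmp2*, which had 5, 1 and 2 counts in all in WT vehicle at 2 h.

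The alternatives were median-ratio scaling, DESeq2 1.42.0, no filter on low counts, no fold change threshold, other sets of libraries in a fit, the share of reads on no gene as a covariate, and leaving out each library in turn. The averages over 48 to 120 h and the fits without both displaced libraries, or without libraries 21, 31, 40 and 64, were added after the data had been seen. The members and the gene lists were chosen with earlier results of these data known. All 10 members are named. From each other list up to 3 genes are named, those with the largest absolute log2 fold change at 120 h in WT vehicle among genes called in the same direction in all 4 arms, with cell type markers and, for each member, the nearest genes by Pearson's r over 36 group means. The exceptions, chosen after their values were seen, are the genes whose response to TCDD is given under the closing observations. No 2 of the 216 pairs of libraries within a group agreed within sampling noise (lowest chi-square per degree of freedom 4.21, median 76.3), so all were counted. Intervals cover counting error only.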

Additional observations from a re-analysis of the deposited data

Results flagged for a closer look

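In 34 of 321 tests of a member within a group of 4 libraries, 1 library lay far from the other 3, its gap to the nearest of them, over the range of the group, being above Dixon's 95% critical value. Chance alone flags about 1 in 20 such groups, and the libraries of a group are shared between members, so the values are not independent. Of the 34, 9 came from the displaced libraries. The displaced 4 h library held *Col1a1* at 38.9 CPM, *Col1a2* at 20.8 CPM, *Col3a1* at 27.2 CPM, *Col4a1* at 807 CPM, *Fn1* at 10623 CPM, *Sparc* at 81.7 CPM, *Mmp2* at 1.30 CPM and *Lox* at 58.5 CPM, all above the other 3 libraries of 4 h. The displaced 96 h library held *Fn1* at 1558 CPM, below the other 3.

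At 120 h the same library was often high in several members. In PkmΔDRE vehicle the first library was high in *Col1a1* (123.2 CPM) and *Col1a2* (77.97 CPM). In PkmΔDRE TCDD the first library was high in *Col1a1* (125.03 CPM), *Col1a2* (71.9 CPM), *Sparc* (156 CPM) and *Tgfb1* (27.9 CPM), and another was low in *Col4a1* (459 CPM). In WT TCDD library 71 was high in *Col1a1* (54.4 CPM), *Col1a2* (36.2 CPM), *Col3a1* (46.2 CPM) and *Sparc* (72.8 CPM) and was flagged in *Tgfb1* (20.5 CPM). In WT vehicle library 36 was high in *Mmp2* (1.02 CPM).

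At 96 h library 65 of WT TCDD was low in *Col1a2* (9.17 CPM) and stood out in *Tgfb1* (18.9 CPM), as did 1 library of PkmΔDRE TCDD (*Tgfb1* at 28.7 CPM). At 24 and 48 h *Lox* stood out in 1 library of WT vehicle (12.3 CPM) and 1 of PkmΔDRE vehicle (73.4 CPM), *Tgfb1* in 1 of WT vehicle (54.1 CPM) and *Mmp2* in 1 of PkmΔDRE TCDD (1.20 CPM). At 12 h *Lox* stood out in library 51 of WT TCDD (11.02 CPM) and *Col1a1* in 1 of PkmΔDRE TCDD (0.511 CPM). At 4 h *Timp1* stood out in 1 library of PkmΔDRE TCDD (4.38 CPM), and at 2 h *Fn1* in library 2 of WT vehicle (4785 CPM) and *Col1a1* in 1 of PkmΔDRE TCDD (0.964 CPM). The cause of these values was not tested.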

How the results depend on the processing

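Among 159 called changes of the members, 130 stayed called in every fit that left out 1 library and 29 were lost in at least 1. TCDD calls in WT numbered 2, and 4 with no filter on low counts, 1 with all 72 libraries in 1 fit, and 1 to 3 with 1 library left out. In PkmΔDRE they numbered 0, and 1 with DESeq2 and with the covariate (*Fn1* at 48 h in both), 2 with all 72 libraries in 1 fit (*Col1a1* and *Col3a1* at 4 h, where the vehicle group holds the displaced 4 h library), and 0 to 1 with 1 library left out. Averaged over time, the count in WT went from 0 to 1 with no fold change threshold (*Tgfb1*, -0.29) and was 0 in every fit with 1 library left out, and that in PkmΔDRE went from 0 to 1 over 48 to 120 h with the libraries that stood apart left out (*Lox*). The label difference in vehicle went from 1 call to 3 in 1 fit of 72 libraries (*Col1a1*, *Col3a1* and *Lox* at 4 h, again with that library) and to 0 to 1 with 1 library left out. The cause of these shifts was not tested.

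Time course calls ran from 39 to 45 in WT vehicle, 42 to 46 in WT TCDD, 22 to 36 in PkmΔDRE vehicle and 36 to 39 in PkmΔDRE TCDD with 1 library left out. In PkmΔDRE vehicle they were 23 with no filter on low counts, 24 with the covariate and 36 with DESeq2 or without both displaced libraries, against 31. The sign of the *Lox* response to TCDD turned at 120 h in WT to 0.40 without replicate 3 of vehicle and to 0.05 without replicate 3 of TCDD, and ran from -0.30 to 0.40 with 1 library left out. Averaged over time in WT it turned from 0.38 to -0.82 over 48 to 120 h and -1.16 with the libraries that stood apart left out, averages that hold other time points. Under median-ratio scaling the median shift of the members' log2 fold changes in a comparison ran from -0.13 to 0.0918. No paired analysis was possible because the labels give no replicate number, and numbers within a group were assigned in accession order. In WT at 2 to 12 h the first and second libraries in that order had more unmapped reads (9.99% to 23.6%) than the third and the fourth (5.83% to 10.4%). This held in 8 of 8 groups, alike in vehicle and TCDD, and its part in the results was not tested. Depth limits *Mmp2*, *Col1a1*, *Col1a2*, *Col3a1* and *Lox* before 24 h, where most libraries held a few counts.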

Other observations

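Averaged over 9 time points, TCDD changed some genes of the other matrix lists under both labels. None of the 10 members was called, where 9.17% of all genes were called in WT and 2.12% in PkmΔDRE. With so few members, that count does not set them apart from other genes. The genes named below were chosen after their values were seen. *Plat*, the gene of a plasminogen activator, was called lower, with a log2 fold change of -0.93 ± 0.23 (SE) in WT (adjusted p = 0.00178, edgeR) and -1.56 ± 0.35 in PkmΔDRE (adjusted p = 0.0026). *Col15a1* was higher by 0.67 ± 0.14 and 1.02 ± 0.16, and *Tnxb* (tenascin-X) by 1.27 ± 0.25 and 0.84 ± 0.25, all called. *Reln*, listed as a stellate cell marker, was higher by 2.53 ± 0.25 and 2.23 ± 0.16. *Loxl2*, the relative of *Lox* that rose most in culture, had -0.49 ± 0.12 in WT, short of the fold change of 1.5, and was called lower in PkmΔDRE (-0.89 ± 0.25, adjusted p = 0.027).

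Of 28 matrix proteases and inhibitors 5 were called higher with TCDD and 1 lower in WT, against 1 and 1 in PkmΔDRE. Of 26 basement membrane and glycoprotein genes 1 was called higher and 1 lower in WT, against 0 and 3. Of 20 collagen processing genes 2 were higher and 1 lower, against 0 and 2. Over all genes tested 7.79% were called higher and 1.38% lower in WT, and 1.06% each way in PkmΔDRE. *Mmp8*, the neutrophil collagenase gene, was higher by 3.25 ± 0.61 in WT and was too low to be tested in PkmΔDRE. These differences between the labels were not tested.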
